A study of Meleagris gallopavo with 18 samples.

Results

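LRP2 (MSTRG.43693), HNF4A (MSTRG.26555), CDHR2 (MSTRG.16682) and PLA2G12B (MSTRG.44991) are 4 of the 56037 gene loci counted in the epididymis, ductus deferens and testis of the turkey (Meleagris gallopavo). They were taken as genes of absorptive epithelium by the identifiers of their loci, which the supplementary tables of the study pair with these names, and 15 of the 103847 transcripts belong to them. Poly(A) RNA of the 3 tissues was sequenced from 6 males, numbered 2, 11, 12, 14, 15 and 16, which gave 18 libraries, 1 for each tissue of a bird. All males were sampled at 38 weeks of age after photostimulation at 26 weeks, on a day of 14 h light and 10 h dark, and the labels give no other treatment. The epididymides, ductus deferentia and testes of the same birds are therefore compared, with 6 samples in each group.

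The excurrent ducts of birds carry sperm and testicular fluid from the testis to the ductus deferens, and their epithelium takes up much of this fluid and its proteins. An epithelium that absorbs bears microvilli and takes up proteins by endocytosis at its apical side. LRP2 (megalin) is the large endocytic receptor of such cells, known from the kidney tubule and the efferent ducts of mammals. CDHR2 is a protocadherin that links the tips of neighbouring microvilli of the brush border. HNF4A is a nuclear receptor and transcription factor of the liver, the intestine and the kidney tubule. PLA2G12B is a catalytically inactive member of the secreted phospholipase A2 family that takes part in lipoprotein secretion and is a known target of HNF4A in the mouse liver.

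The libraries held between 64143451 and 118625345 counts, and at this depth 3 counts correspond to between 0.0187 and 0.0676 CPM. The CPM, or counts in 1000000, are normalised with the TMM factors of edgeR over the 18 samples. They are not corrected for the length of a gene, so they compare tissues and birds for 1 gene but not genes with each other. The epididymis of bird 12 stood apart from the other libraries. It had counts on 17596 genes, against 27459 to 34711 in the other epididymides. Marker genes separated the tissues. The summed level of 10 germ cell genes was 127 to 209 CPM in the epididymides, 16.6 to 30.6 CPM in the ductus deferentia and 1030 to 2742 CPM in the testes. In the epididymis this sum rested mainly on SPACA9, with a mean of 97.7 CPM, followed by MAK at 25.6 CPM. HORMAD1 averaged 9.16 CPM there, MEIOC 0.81 CPM and KIF18A 0.68 CPM. The summed level of 14 genes of ciliated cells was 671 to 1056 CPM in the epididymides, 32.9 to 63.6 CPM in the ductus deferentia and 1213 to 1644 CPM in the testes. The study proposes for ARMC4, 1 of them, a role in spermatogenesis through cilia or flagella. This sum, highest in the testes, is therefore not read as a measure of ciliated cells alone. These 14 genes did not move as 1 group between the epididymis and the testis. By the edgeR test defined below, 3 were called higher in the epididymis and 6 lower, beside 3686 and 6551 of the 28489 genes tested. DNAH5 averaged 169 CPM in the epididymis and 1.19 CPM in the testis, whereas TEKT2 averaged 28.0 and 256 CPM. Of the genes of duct epithelium, KRT19 was at 8.49 to 50.9 CPM in the epididymides, 89.96 to 1039 CPM in the ductus deferentia and 11.0 to 26.5 CPM in the testes. LAD1 was at 107 to 307 CPM in the epididymides, 203 to 499 CPM in the ductus deferentia and 2.63 to 11.7 CPM in the testes. Some of these markers were at 0 in at least 1 library, namely KIF18A and SLC26A8 of germ cells in the epididymis, and MEIOC, KIF18A and PCSK4 of germ cells and DNAH5, ARMC4, DNAH7 and LRRC6 of ciliated cells in the ductus deferens.

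All 4 genes were most abundant in the epididymis, and for each of them the lowest epididymis lay above the highest sample of both other tissues. The margin was widest for LRP2, whose lowest epididymis held 15.8 times the level of the highest other sample. It was 6.38 times for HNF4A and 6.27 times for PLA2G12B. The margin was narrowest for CDHR2, at 1.69 times with the epididymis of bird 12 and at 5.81 times without it. Without that library the margin was 18.8 times for LRP2, 9.12 times for HNF4A and 8.08 times for PLA2G12B. The study selected these genes for their difference between the epididymis and the other tissues on these same libraries, so this direction is not independent evidence. In bulk tissue, more cells of a type and more RNA per cell cannot be told apart.

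The endocytic receptor LRP2 had a lowest level of 278 CPM, a median of 428 CPM and a highest level of 547 CPM in the epididymis. In the ductus deferens the lowest level was 0.30 CPM, the median 1.15 CPM and the highest 4.36 CPM, and in the testis they were 2.37, 10.3 and 17.6 CPM. The epididymides were thus alike for LRP2, with a coefficient of variation of 24.0%, whereas the ductus deferentia differed most, with the highest in birds 15 and 16. In the testis the LRP2 level was 2.42 CPM in bird 2 and 2.37 CPM in bird 11 but between 9.81 and 17.6 CPM in the other 4 birds. LRP2 was 44.8 times higher in the epididymis than the testis (log2 fold change 5.48 ± 0.54 SE, edgeR adjusted p = 4.09e-06). It was 220 times higher in the epididymis than the ductus deferens (log2 fold change 7.78 ± 0.71 SE, edgeR adjusted p = 1.25e-05).

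The transcription factor HNF4A ranged more widely between birds in the epididymis, with a lowest level of 35.8 CPM, a median of 125 CPM and a highest level of 233 CPM. It was between 0.14 and 0.88 CPM in the ductus deferens, with a median of 0.27 CPM, and between 1.61 and 5.61 CPM in the testis, with a median of 2.42 CPM. The 3 tissues did not overlap for HNF4A. The epididymides fell into 2 sets of 3 birds, with 188 to 233 CPM in birds 2, 15 and 16 and 35.8 to 62.4 CPM in birds 11, 12 and 14, and the ratio between the nearest birds of the sets was 3.02. HNF4A was 43.7 times higher in the epididymis than the testis (log2 fold change 5.45 ± 0.57 SE, edgeR adjusted p = 7.60e-06). It was 307 times higher in the epididymis than the ductus deferens (log2 fold change 8.26 ± 0.74 SE, edgeR adjusted p = 1.12e-05), where its counts were only 12 to 46 per library.

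The microvillar protocadherin CDHR2 had a lowest level of 60.7 CPM, a median of 259 CPM and a highest level of 422 CPM in the epididymis. It was between 2.55 and 35.9 CPM in the ductus deferens (median 14.1 CPM) and between 2.98 and 23.3 CPM in the testis (median 7.30 CPM). The lowest epididymis was that of bird 12, and the next was that of bird 11 at 208 CPM. The ductus deferentia and the testes overlapped widely. CDHR2 was 28.9 times higher in the epididymis than the testis (log2 fold change 4.85 ± 0.55 SE, edgeR adjusted p = 1.38e-05) and 15.1 times higher in the epididymis than the ductus deferens (3.91 ± 0.57 SE, adjusted p = 0.000481).

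PLA2G12B, the lipoprotein secretion factor, had a lowest level of 14.5 CPM, a median of 29.6 CPM and a highest level of 43.8 CPM in the epididymis. It was between 0.25 and 0.76 CPM in the ductus deferens (median 0.43 CPM) and between 0.57 and 2.31 CPM in the testis (median 1.20 CPM). Birds 2, 15 and 16 were the highest in the epididymis, as for HNF4A. PLA2G12B was 21.6 times higher in the epididymis than the testis (log2 fold change 4.43 ± 0.48 SE, edgeR adjusted p = 9.44e-06) and 59.9 times higher in the epididymis than the ductus deferens (5.91 ± 0.43 SE, adjusted p = 2.77e-06).

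**Figure D1:**
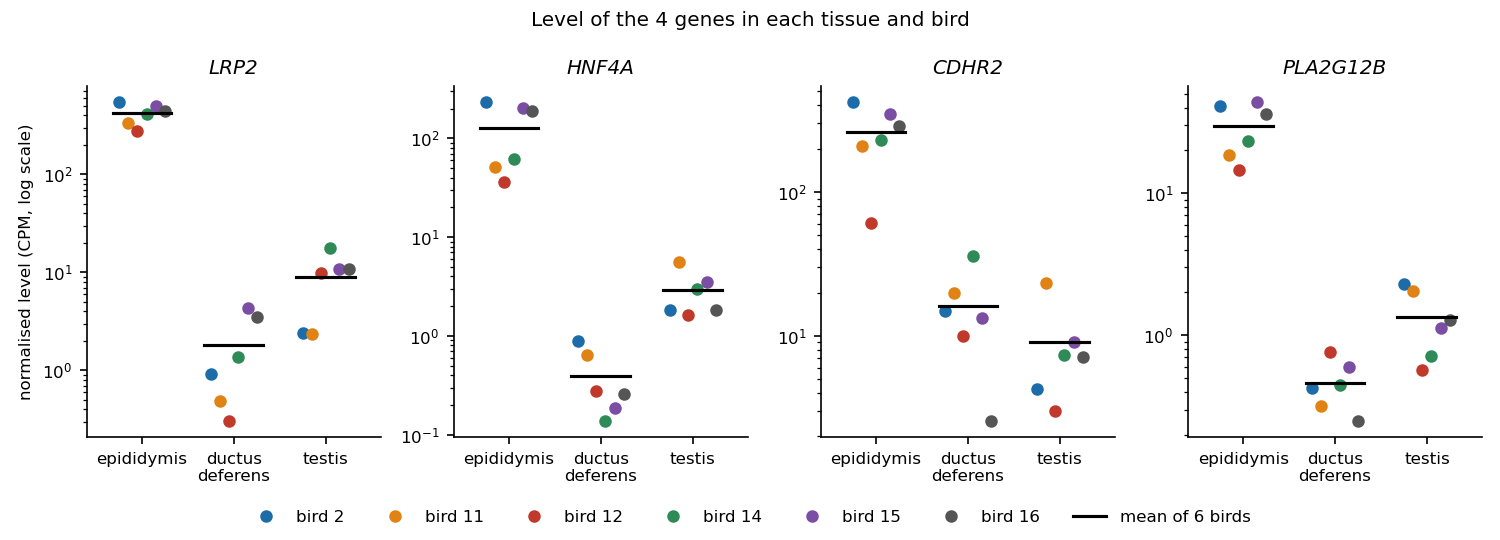
Normalised level of LRP2, HNF4A, CDHR2 and PLA2G12B (CPM, log scale, 1 panel per gene) in the epididymis, the ductus deferens and the testis, with 1 point per bird and a line at the mean of the 6 birds. In every panel the 6 epididymides lie above all other samples, with the least distance for CDHR2 in bird 12, at 60.7 CPM.

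A gene was called when the edgeR quasi-likelihood test gave an adjusted p under 0.01 and its level changed by more than 1 on the log2 scale. All 4 genes were called higher in the epididymis than the testis, where 12.9% of the 28489 genes tested were called in this direction. All 4 were also called higher in the epididymis than the ductus deferens, where 4.22% of the 22695 genes tested were. Each of the 4 genes was higher in the epididymis in 6 of 6 birds in both comparisons. These calls held in every alternative fit, including the fits with the bird as a block and without the epididymis of bird 12. Both comparisons share the epididymal samples. Against the testis, 478 genes had a higher log2 fold change than LRP2 and 852 had a higher one than PLA2G12B, and against the ductus deferens 151 had a higher one than HNF4A and 724 a higher one than CDHR2.

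The ductus deferens and the testis differed for some of the genes. HNF4A was lower in the ductus deferens than in the testis in all 6 birds, with a mean of 0.40 ± 0.30 CPM in the ductus deferens against 2.90 ± 1.53 CPM in the testis (SD, n = 6), and its log2 fold change was -2.88 ± 0.60 SE (edgeR adjusted p = 0.000824). LRP2 was also lower in the ductus deferens in all 6 birds, with 1.83 ± 1.69 CPM there against 8.99 ± 5.82 CPM in the testis (SD, n = 6), and its log2 fold change was -2.38 ± 0.70 SE (edgeR adjusted p = 0.00982). The groups overlapped for LRP2. Its call stood close to the threshold and was lost when any 1 bird was left out, with adjusted p between 0.0108 and 0.0463. PLA2G12B averaged 0.46 ± 0.19 CPM in the ductus deferens and 1.34 ± 0.70 CPM in the testis (SD, n = 6) and was not called (log2 fold change -1.55 ± 0.54 SE, edgeR adjusted p = 0.0236), but it was called with DESeq2 (adjusted p = 0.00118) and with all 3 tissues in 1 edgeR fit (adjusted p = 0.00442). CDHR2 averaged 16.1 ± 11.3 CPM in the ductus deferens and 9.04 ± 7.33 CPM in the testis (SD, n = 6) and was not called either (0.83 ± 0.55 SE, edgeR adjusted p = 0.209). Hence 2 of the 4 genes were called lower in the ductus deferens, where 30.4% of the 27550 genes tested were called lower and 14.9% higher, and nothing particular to the 4 genes is read from this count.

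**Figure D2:**
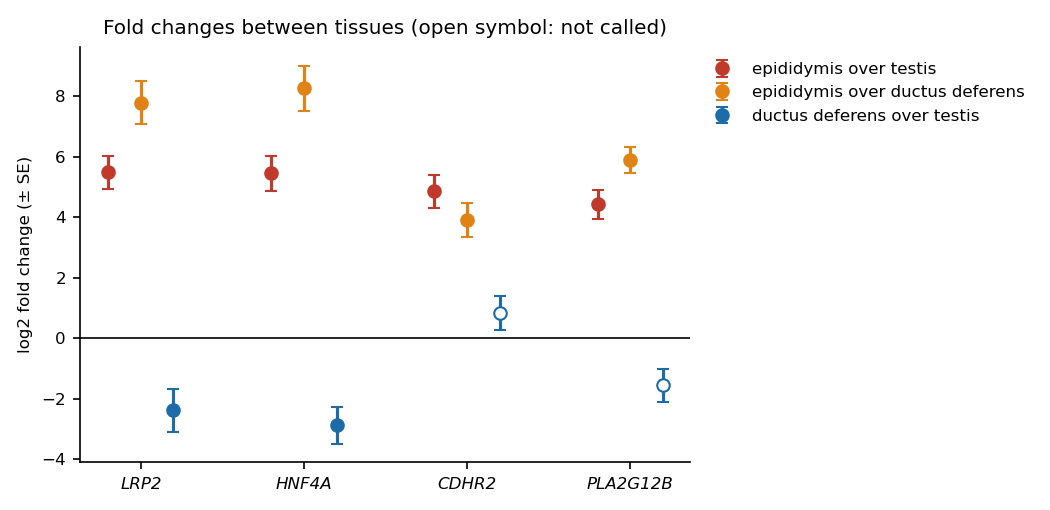
Log2 fold change with its standard error (edgeR, 6 birds per tissue) of the 4 genes for epididymis over testis, epididymis over ductus deferens and ductus deferens over testis. Filled symbols were called and open symbols were not, and the order of the tissues was epididymis, testis, ductus deferens for HNF4A, at 8.26 over the ductus deferens and 5.45 over the testis.

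The genes varied together over the 6 epididymides. LRP2, HNF4A and CDHR2 ranked the birds in the same order, with bird 2 highest, followed by birds 15, 16, 14, 11 and 12. PLA2G12B differed from this order only in the exchange of birds 15 and 2, at 43.8 and 41.2 CPM. The spread along this order differed between the genes. The highest epididymis held 1.97 times the level of the lowest for LRP2, 3.03 times for PLA2G12B, 6.53 times for HNF4A and 6.96 times for CDHR2. The spread of CDHR2 rested on the epididymis of bird 12, without which the ratio was 2.03 for CDHR2, 1.65 for LRP2, 2.35 for PLA2G12B and 4.56 for HNF4A. The SD of the log2 level over the epididymides was 0.36 for LRP2 and 1.16 for HNF4A, beside a median of 0.42 over the 30708 loci tested over all 18 samples. HNF4A was more variable than 89.3% of these loci and CDHR2 than 84.6%. Over the 5 epididymides without bird 12, these shares were 97.8% for HNF4A and 76.5% for CDHR2. The loci were filtered over all 3 tissues, so loci scarce in the epididymis count among them. On log2(CPM+1) the spread of scarce loci is narrowed, and these shares may therefore be too high.

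**Figure D3:**
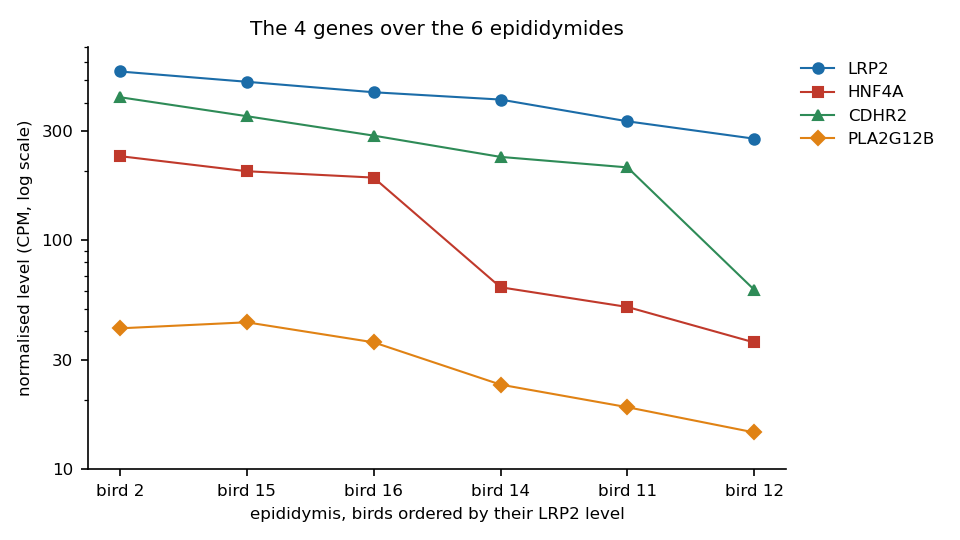
Normalised level (CPM, log scale) of the 4 genes in the epididymis of each bird, with the birds ordered from the highest to the lowest LRP2 level and 1 line per gene. The lines of LRP2, HNF4A and CDHR2 descend from bird to bird, and that of PLA2G12B does so but for bird 15 (43.8 CPM) over bird 2 (41.2 CPM), with the widest step of HNF4A between birds 16 and 14 (3.02 times) and that of CDHR2 between birds 11 and 12 (3.43 times).

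Correlations between the genes were computed on log2(CPM+1) for the 6 pairs over the 6 birds. LRP2 and CDHR2 had a Pearson coefficient of 0.93 (exact permutation p = 0.00139, adjusted over the 6 pairs 0.00278) and a Spearman coefficient of 1 (exact permutation p = 0.00278, adjusted 0.00556). LRP2 and PLA2G12B had a Pearson coefficient of 0.96 (exact permutation p = 0.00278, adjusted 0.00333) and a Spearman coefficient of 0.94 (exact permutation p = 0.0167, adjusted 0.0167). CDHR2 and PLA2G12B had a Pearson coefficient of 0.88 (exact permutation p = 0.00278, adjusted 0.00333) and the same Spearman coefficient of 0.94 with the same p. The tests were two-sided over the 720 orders of the birds. Without the 2 birds farthest from the median of the first gene, the coefficients of these pairs over the remaining birds were 0.99, 0.83 and 0.99. With the epididymis of bird 12 left out, the adjusted p of the 6 pairs was between 0.025 and 0.0333 (exact permutation). The pairs with HNF4A passed the same test, but HNF4A fell into 2 sets of birds, and within sets of 3 birds the relation cannot be tested. These p values do not say that the covariation is particular to the 4 genes. Over the 6 epididymides, 1410 of the 30707 other loci tested had a higher Pearson coefficient with CDHR2 than LRP2 had. For PLA2G12B there were 3707 such loci and for HNF4A 5432. Without the epididymis of bird 12 there were 78 for LRP2, 202 for PLA2G12B and 203 for HNF4A.

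The joint order rests on the scaling between libraries to some degree. In CPM without the TMM factors, bird 14 was the highest of the 6 epididymides for LRP2, at 514 CPM, bird 15 was the highest for HNF4A, at 203 CPM, and birds 11 and 12 remained the lowest of the 6 for all 4 genes. The Pearson coefficients of all 6 pairs still passed on this scale, with adjusted p from exact permutations of at most 0.0264. With the Spearman coefficient on this scale, which was added after the order of the birds had been seen, none of the 6 pairs had an adjusted p under 0.05 (exact permutation, adjusted p between 0.05 and 0.242).

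Birds 11 and 12 held the lowest level of each gene. Compared with the median of the other 5 epididymides, the epididymis of bird 12 had 62.6% of the level of LRP2, 19.0% of HNF4A, 21.2% of CDHR2 and 40.4% of PLA2G12B. That of bird 11 had 74.6% of the level of LRP2, 27.2% of HNF4A, 72.6% of CDHR2 and 52.0% of PLA2G12B. KRT19, a keratin of duct epithelium, moved the other way and was at 50.9 CPM in the epididymis of bird 11 and 29.1 CPM in that of bird 12, against 8.49 to 18.3 CPM in the other 4. LAD1, another gene of duct epithelium, was at 307 CPM in the epididymis of bird 11 and 236 CPM in that of bird 12, against 107 to 213 CPM in the other 4. The part of these differences between birds in the results was not tested.

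In the other tissues, where the genes were scarce, the birds did not keep this order. Birds 2 and 11 had the lowest testes for LRP2 and the highest for PLA2G12B (Pearson coefficient -0.88, exact permutation p = 0.0431, adjusted over 6 pairs 0.129). HNF4A and CDHR2 were both highest in the testis of bird 11, at 5.61 CPM for HNF4A and 23.3 CPM for CDHR2, followed by bird 15 at 3.51 and 9.09 CPM. Their Pearson coefficient over the testes was 0.93 (exact permutation p = 0.00278, adjusted 0.0167) and their Spearman coefficient 0.94 (exact permutation p = 0.0167, adjusted 0.1), and the Pearson coefficient was 0.68 without birds 11 and 15. In the ductus deferens the highest sample was that of bird 15 for LRP2, bird 2 for HNF4A, bird 14 for CDHR2 and bird 12 for PLA2G12B, and none of the 6 pairs passed there, with Pearson coefficients between -0.48 and 0.24 and adjusted exact permutation p of at least 0.807.

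The counts of the 15 transcripts were compared next, since they add up exactly to the counts of their gene in all 18 samples. LRP2 had 7 transcripts, HNF4A and PLA2G12B had 3 each and CDHR2 had 2, and 1 transcript of each gene carried an Ensembl identifier while the others came from the assembly of the reads of this study. How reads in shared exons were divided between transcripts was set by the upstream processing, so that the count of a transcript is less certain than that of its gene.

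The counts of HNF4A came mainly from MSTRG.26555.1 and MSTRG.26555.2. MSTRG.26555.1 had between 2297 and 16302 counts in the epididymides of 5 birds, which is 46.2% to 69.7% of the gene, but 0 counts in the epididymis of bird 12 and in all ductus deferentia and testes. MSTRG.26555.2 carried nearly all of the rest in these epididymides, where the Ensembl transcript ENSMGAT00000004447 held at most 1.31%. MSTRG.26555.2 carried all counts of HNF4A in the epididymis of bird 12 and in the 6 ductus deferentia, and 82.3% to 100% of them in the testes. The share of MSTRG.26555.1 averaged 46.4 ± 24.6% in the epididymis and 0% in the testis (SD, n = 6; two-sided exact permutation p = 0.0152, adjusted over 12 tests 0.0303). MSTRG.26555.1 was picked for this test by its counts summed over the 18 samples, and all 42424 of them lay in the epididymides. That choice favoured the epididymis, so the p is not independent evidence. HNF4A held 175 to 384 counts in a testis and 12 to 46 in a ductus deferens. The epididymis of bird 12 held 1588 counts of the gene and also none of MSTRG.26555.1. Its 0 counts in the testes are therefore not read as absence, and their cause was not tested. Of the ductus deferentia only 4 reached the 20 counts asked for, and there the adjusted exact permutation p was 0.0653. MSTRG.26555.2 alone was also higher in the epididymis than the testis, by a log2 fold change of 4.11 ± 0.54 SE (edgeR adjusted p = 0.000327), and than in the ductus deferens, by 7.07 ± 0.71 SE (adjusted p = 0.00049).

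The pattern of CDHR2 was close to all or nothing. The Ensembl transcript ENSMGAT00000005191 carried 92.2% to 95.0% of the counts of CDHR2 in the epididymides of 5 birds and 0 of 2696 counts in that of bird 12. In the other tissues it was at 0 counts in all but 1 sample of each. It carried 655 of 776 counts (84.4%) in the ductus deferens of bird 2 and 1321 of 1595 counts (82.8%) in the testis of bird 11, which is also the testis with the highest level of the gene. The assembled transcript MSTRG.16682.1 made up the remaining counts, and its level differed far less between the tissues, at 24.8 ± 17.7 CPM in the epididymis, 13.9 ± 12.3 CPM in the ductus deferens and 5.81 ± 2.19 CPM in the testis (SD, n = 6). MSTRG.16682.1 was not called higher in the epididymis than the testis (log2 fold change 1.88 ± 0.57 SE, edgeR adjusted p = 0.0256) or than in the ductus deferens (0.82 ± 0.70 SE, edgeR adjusted p = 0.847). ENSMGAT00000005191 averaged 231 ± 135 CPM in the epididymis, 2.11 ± 5.16 CPM in the ductus deferens and 3.01 ± 7.37 CPM in the testis, and its difference was not called either (epididymis over ductus deferens 6.73 ± 2.69 SE, edgeR adjusted p = 0.346, and adjusted p = 0.113 over the testis). Without the epididymis of bird 12 it was still not called (edgeR adjusted p = 0.154 over the ductus deferens and 0.0685 over the testis). Its share of CDHR2 averaged 78.2 ± 38.3% in the epididymis against 14.1 ± 34.5% in the ductus deferens and 13.8 ± 33.8% in the testis (SD, n = 6; exact permutation p = 0.0152 and adjusted p = 0.0303 for each). ENSMGAT00000005191 was also picked by its summed counts, of which 136287 of 138263 lay in the epididymides. These p values are therefore not independent evidence either.

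The counts of LRP2 fell on different transcripts in different epididymides although its level was similar. MSTRG.43693.1 held 85.9% to 98.8% of the counts of LRP2 in the epididymides of birds 12, 14 and 16, but 20.3% in bird 15, 18.4% in bird 2 and 0.019% in bird 11. MSTRG.43693.5 held 71.2% of the counts in bird 15. In bird 2 the Ensembl transcript ENSMGAT00000011850 held 46.6% and MSTRG.43693.6 held 28.2%, and in bird 11 they held 37.2% and 56.1%. ENSMGAT00000011850 was at 0 counts in all ductus deferentia and testes. In the ductus deferens MSTRG.43693.1 accounted for 93.9% to 100% of the counts, and in the testis for 87.0% to 97.0% in birds 11, 14, 15 and 16, against 30.7% in bird 2 and 44.5% in bird 12. The share of MSTRG.43693.1 averaged 51.7 ± 43.4% in the epididymis, against 98.5 ± 2.55% in the ductus deferens (SD, n = 6; exact permutation p = 0.00649, adjusted 0.0303), and it averaged 74.8 ± 29.3% in the testis (exact permutation p = 0.271 for epididymis over testis, adjusted 0.406). The share in the ductus deferens was 23.7 percentage points higher than in the testis (exact permutation p = 0.00866, adjusted 0.0303). LRP2 held only 24 to 424 counts in a ductus deferens, against 162 to 2058 in a testis. Counts on its other transcripts appeared in the ductus deferens only in birds 15 and 16, which held 424 and 310 counts of the gene. Minor transcripts may thus have been missed in the other ductus deferentia.

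Most counts of PLA2G12B fell on 1 transcript throughout. MSTRG.44991.1 carried 93.4% to 100% of its counts in the epididymides, 100% in all ductus deferentia and 89.2% to 100% in the testes. Its mean share was 96.6 ± 2.31% in the epididymis, against 100 ± 0% in the ductus deferens (SD, n = 6; exact permutation p = 0.0152, adjusted 0.0303), a difference of 3.42 percentage points, and with at most 60 counts in a ductus deferens the minor transcripts would hardly be seen at this depth. MSTRG.44991.1 was higher in the epididymis than the testis by a log2 fold change of 4.17 ± 0.60 SE (edgeR adjusted p = 0.00049) and over the ductus deferens by 5.85 ± 0.55 SE (edgeR adjusted p = 0.000312).

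**Figure D4:**
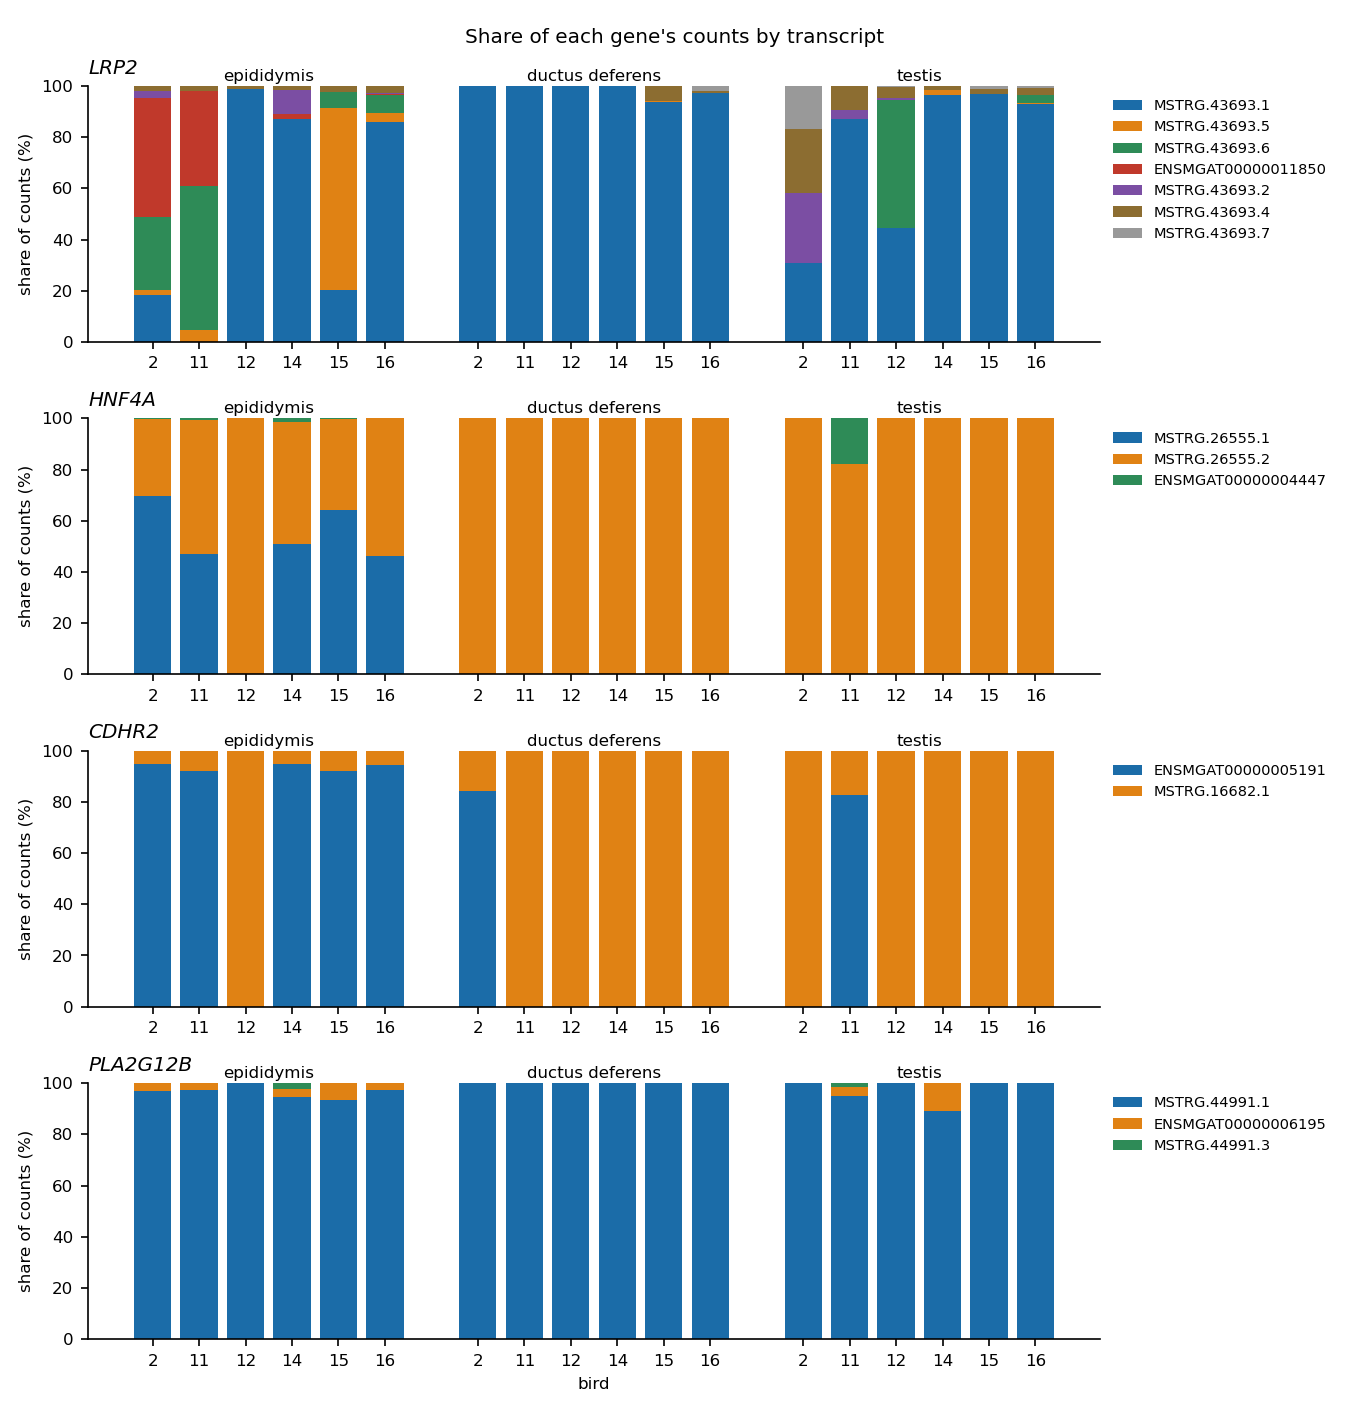
Share of the counts of LRP2, HNF4A, CDHR2 and PLA2G12B carried by each of their transcripts (percent, stacked to 100), for each bird in the epididymis, the ductus deferens and the testis. MSTRG.26555.1 of HNF4A and ENSMGAT00000005191 of CDHR2 fill most of 3 and 5 of the epididymides, and both are missing in the epididymis of bird 12. The transcript with most counts of LRP2 differs between the epididymides of birds 2, 11, 12 and 15.

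The epididymis of bird 12 showed 2 transcripts with counts for LRP2 and 1 for each of the other genes, against 5 to 7 for LRP2 in the other epididymides. This library also had counts on 22109 transcripts and 3666 transcripts with an Ensembl identifier in all, against 45947 to 61868 and 9514 to 11595 in the other epididymides. The part of this in its transcript use was not tested. Of the 15 transcripts, 3 were called higher in the epididymis than the testis and 2 were higher than in the ductus deferens, where 3.49% and 0.91% of all transcripts tested were called in that direction, and 1, MSTRG.26555.2 of HNF4A, was called lower in the ductus deferens than in the testis, where 18.8% were. A fit without the epididymis of bird 12 was added after the data were seen. Of all transcripts it tested, 3491 of 55728 were called higher in the epididymis than the testis. Over the ductus deferens 1216 of 41506 were. Of the 15 transcripts, 4 were called higher in the epididymis over the testis and 4 over the ductus deferens. Among them was MSTRG.26555.1 of HNF4A, which was not tested with that library. The filter on low counts left it out there, since it had counts in only 5 epididymides and none in that of bird 12. With the bird as a block and all libraries none of the 15 transcripts was called. Of all transcripts tested in that fit, 175 of 48523 were called higher in the epididymis than the testis. Over the ductus deferens 0 of 37795 were, and 1788 of 45677 were called lower in the ductus deferens than in the testis. The 0 of the 15 is therefore not particular to these genes. None of the 6 differences in share with an adjusted p under 0.05 passed when the signs of the differences were exchanged within birds. That test has 64 sign changes, which allow no p below 0.0312 before adjustment over 12 comparisons. With any 1 bird other than bird 12 left out, 0 of these 6 differences passed, and without bird 12 there were 6.

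Genes of the same functions were then considered, from lists of 14 genes of endocytosis with LRP2, 16 of the brush border, 21 partners or liver-type targets of HNF4A and 12 of solute and water transport. Only those that the study names could be matched to a locus, which were 15 of the 63. The others were not analysed here, among them CUBN, the partner of LRP2, and CDHR5, the partner of CDHR2. The named genes were themselves selected by the study for differences between these tissues, so their counts are not independent evidence.

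LGMN, a lysosomal protease of the endocytic route, was the 1 gene of endocytosis and was higher in the epididymis, at 410 ± 139 CPM against 128 ± 21.6 CPM in the ductus deferens and 22.4 ± 7.62 CPM in the testis (SD, n = 6), with a log2 fold change of 1.59 ± 0.23 SE over the ductus deferens (edgeR adjusted p = 0.000452). TMEM27 (collectrin), which helps amino acid transporters to the brush border in the mouse kidney, was the 1 gene of the brush border. It reached 89.7 ± 19.2 CPM in the epididymis against 7.61 ± 2.48 CPM in the ductus deferens and 8.52 ± 3.47 CPM in the testis (SD, n = 6), with a log2 fold change of 3.52 ± 0.31 SE over the ductus deferens (edgeR adjusted p = 1.07e-05). Unlike the 4 genes above, TMEM27 was highest in the epididymis of bird 12, at 126 CPM, as was CREB3L3 of the HNF4A list, at 42.7 CPM. This contrast rests on that library. Over the other 5 epididymides, the Pearson coefficients with the 4 genes were 0.78 to 0.93 for TMEM27 and 0.47 to 0.70 for CREB3L3.

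Of the 7 liver-type genes matched to the HNF4A list, 7 were higher in the epididymis than the testis, 6 were higher than in the ductus deferens, and none was lower in either, where 12.9% and 4.22% of all genes tested were called higher. Their median log2 fold change was 4.37 over the testis, beside -0.30 for all genes tested, and 3.66 over the ductus deferens, beside 0.05. The summed level of FGB, F5 and PROC, which are also liver markers, was 193 to 435 CPM in the epididymides, 33.5 to 92.1 CPM in the ductus deferentia and 4.63 to 19.6 CPM in the testes, and its lowest epididymis was that of bird 12. Only F5 of the 3 was lowest there, at 35.4 CPM against 148 to 244 CPM in the others. PROC was highest in the epididymides of birds 12 and 2, at 116 CPM in each. FGB was lowest in the epididymis of bird 11, at 28.5 CPM. KMO, an enzyme of tryptophan breakdown, was at 61.9 ± 29.5 CPM in the epididymis against 1.02 ± 0.73 CPM in the ductus deferens (log2 fold change 5.79 ± 0.63 SE, edgeR adjusted p = 5.00e-05). ASS1, argininosuccinate synthase, was at 212 ± 85.8 CPM in the epididymis against 14.2 ± 11.4 CPM in the ductus deferens (3.84 ± 0.56 SE, adjusted p = 0.000486), and CREB3L3, a transcription factor of liver and intestine, was at 27.4 ± 10.3 CPM in the epididymis against 1.11 ± 0.49 CPM in the ductus deferens (4.60 ± 0.42 SE, adjusted p = 1.29e-05). The coagulation genes FGB, F5 and PROC rose by log2 fold changes of 2.35, 3.66 and 1.39 over the ductus deferens, and these 3 calls were lost with the bird as a block, which left 3 of 7. ACAA2, a thiolase of fatty acid oxidation, was at 409 ± 172 CPM in the epididymis, against 395 ± 64 CPM in the ductus deferens (log2 fold change -0.08 ± 0.30 SE, edgeR adjusted p = 0.939).

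The 6 genes of solute and water transport did not move as 1 group. Of these, 5 were called higher in the epididymis than the testis, beside 12.9% of all genes tested, and 4 with the bird as a block, when SLC15A1 lost its call. Against the ductus deferens, 4 were called higher and 1 lower, beside 4.22% and 1.12% of all genes tested, and with the bird as a block 1 was higher and 2 were lower. KL (klotho), a co-receptor that controls phosphate handling, was at 63.8 ± 32.2 CPM in the epididymis, against 0.47 ± 0.64 CPM in the ductus deferens (log2 fold change 6.98 ± 1.24 SE, edgeR adjusted p = 0.00225). The water channel AQP4 was at 89.3 ± 49.6 CPM in the epididymis, against 2.38 ± 1.49 CPM in the ductus deferens (5.11 ± 0.88 SE, edgeR adjusted p = 0.00178). SLC7A11, a cystine transporter, and AQP9, a channel for water and glycerol, were called higher too, with log2 fold changes of 6.84 and 1.48. The peptide transporter SLC15A1 was lower in the epididymis than the ductus deferens, at 35.6 ± 23.2 CPM in the epididymis against 188 ± 76.5 CPM in the ductus deferens (log2 fold change -2.45 ± 0.46 SE, edgeR adjusted p = 0.00332), and the phosphate transporter SLC34A2 was at 21.6 ± 17.5 CPM in the epididymis against 93.4 ± 28.6 CPM in the ductus deferens and was not called (-2.18 ± 0.51 SE, edgeR adjusted p = 0.0139).

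**Figure D5:**
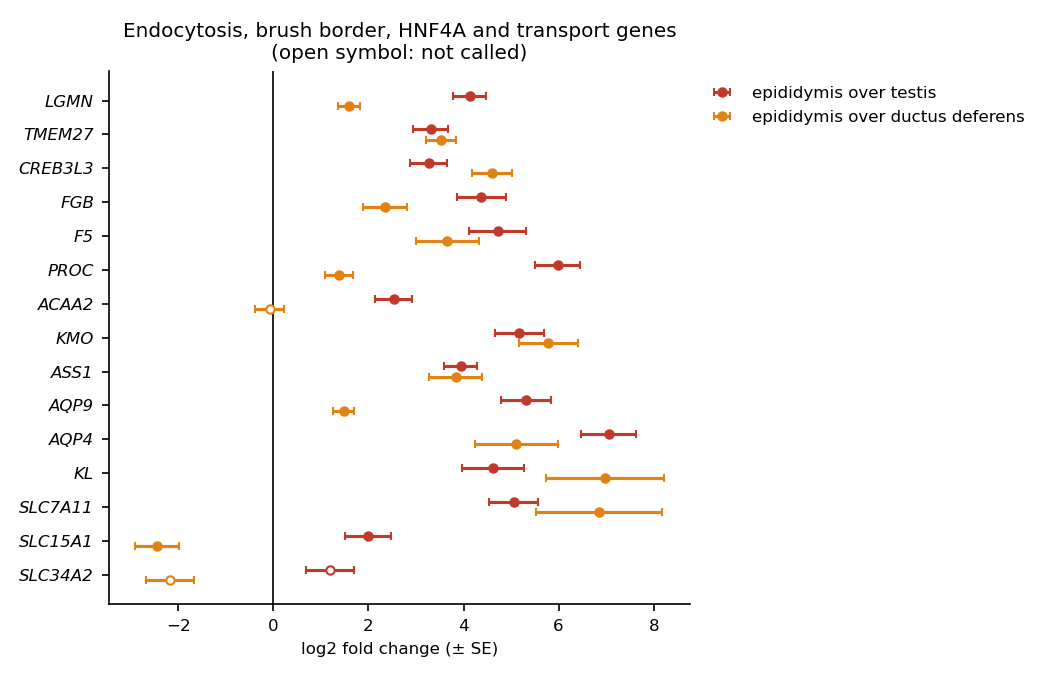
Log2 fold change with its standard error (edgeR, 6 birds per tissue) of the 15 matched genes of endocytosis, brush border, HNF4A and transport lists for epididymis over testis and epididymis over ductus deferens, with open symbols for genes that were not called. All points lie right of 0 except those over the ductus deferens of ACAA2 (-0.08), SLC15A1 (-2.45) and SLC34A2 (-2.18).

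Within the epididymis these genes followed the 4 genes to a different degree. F5 came closest to CDHR2, with a lowest level of 35.4 CPM in bird 12 and a highest of 244 CPM in bird 2. KL was at 3.22 CPM in the epididymis of bird 12, against 57.8 to 89.6 CPM in the others, and KMO was at 7.99 CPM, against 49.9 to 87.2 CPM. Without that library the Pearson coefficients with the 4 genes were 0.91 to 0.99 for F5 and 0.49 to 0.81 for KL. For KMO they were only -0.20 to 0.21. SLC15A1 and SLC34A2, whose means were higher in the ductus deferens, were highest in the epididymides of birds 11 and 12, where LRP2, HNF4A, CDHR2 and PLA2G12B were lowest. SLC15A1 was at 57.2 CPM in bird 11 and 70.1 CPM in bird 12, against 11.2 to 30.1 CPM in the other 4 epididymides. The share of tissue of the ductus deferens in these samples was not tested.

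The loci with a profile most like that of each gene were sought by the Pearson coefficient of log2(CPM+1) over all 18 samples, whose points share tissues and birds, and are given as a description. Among the 82 other named loci, HNF4A and PLA2G12B were nearest to each other, with a coefficient of 0.98. Among the 30707 other loci tested, 1 was nearer to HNF4A than PLA2G12B was and 2 were nearer to PLA2G12B than HNF4A was. The next named loci were SLC7A11 (0.95) and CRYAB (0.95) for HNF4A, and SLC7A11 (0.96) and KMO (0.96) for PLA2G12B. LRP2 was most like the axonemal dynein DNAH5 (0.96), SLC7A11 (0.95) and HNF4A (0.95), and CDHR2 was most like KMO (0.91), ASS1 (0.91) and PLA2G12B (0.91). Loci with a coefficient over 0.9 made up 0.69% of all loci for LRP2, 0.80% for HNF4A, 0.47% for CDHR2 and 0.91% for PLA2G12B.

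Over the 6 epididymides alone, 4 loci were nearer to HNF4A than PLA2G12B was, and 40 were nearer to LRP2 than PLA2G12B was. For CDHR2 the nearest named locus was F5, with 12 loci nearer, followed by CDHR3 and KL. The profile of CDHR2 was shared by many loci, since 9.32% of the 30707 loci had a coefficient over 0.9 with it, against 0.83% with LRP2. Without the epididymis of bird 12, where CDHR2 was lowest, 1.13% of the loci had such a coefficient with CDHR2. LRP2 was then the named locus nearest to CDHR2 after F5.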

How the data were processed

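Trimmomatic, STAR and StringTie served the authors for trimming, for mapping to version 2.01 of the turkey genome and for transcript assembly. They deposited raw counts per gene and per transcript as whole numbers, without normalization. Which tool counted, and with which strand setting, is not given in the sources used here, so loci that overlap another are uncertain. Tissue and bird come from the sample labels. Gene names come from the supplementary tables, which name 83 loci. The reference table at hand is of a later assembly (Turkey_5.1) and was not used. No sequence is shown.

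Tests were made with edgeR 4.0.16 in R 4.3.3 (TMM, filter on low counts, robust quasi-likelihood fit, Benjamini-Hochberg adjustment over all genes or transcripts tested), with the 12 samples of each comparison. The thresholds follow the methods of the study, which used other tools. The SE was derived from the F statistic, as the size of the log2 fold change over its square root. Shares of the main transcript were compared over the 924 assignments of 6 against 6 samples, in samples with at least 20 counts of the gene. The main transcript is the one with most counts summed over the 18 samples, and for each gene most of these counts lay in the epididymides. Python 3.11.15, numpy 2.4.6 and pandas 2.3.3 were used for the rest. The steps were tested on simulated data.

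The 3 tissues of a number come from the same bird. Over the tested loci, deviations from the tissue mean correlated between samples of the same bird by 0.08 (epididymis and ductus deferens), 0.02 (epididymis and testis) and 0.01 (ductus deferens and testis) on average. The bird entered as a block in an alternative fit.

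The 4 genes, the lists, the markers and the alternatives were chosen with earlier results of these data known. Named genes are the 4 genes, the matched members of the lists and, for each of the 4, the 3 named loci of most similar profile. Of the marker lists for kidney, smooth muscle, leukocytes and red blood cells no gene was matched, and these cells were not analysed here. A marker of duct epithelium and the sum that holds it are not reported here. Alternatives were DESeq2 1.42.0, limma 3.58.1 on log2(CPM+1), other scaling, no filter, all tissues in 1 fit, an adjusted p under 0.05 and each bird or the epididymis of bird 12 left out.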

Additional observations from a re-analysis of the deposited data

Results flagged for a closer look

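CDHR2 in the testis of bird 11, at 23.3 CPM, lay far from the other testes, of which the next was at 9.09 CPM and the lowest at 2.98 CPM. The gap to the next testis took up 0.699 of the whole range of the 6 values. It was the 1 sample found in this way among 12 groups of gene and tissue, where chance gives about 1 in 20 groups. In this testis 82.8% of the counts of CDHR2 were on ENSMGAT00000005191, which had 0 counts in the other testes.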

How the results depend on the processing

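The calls of all 4 genes over the testis and over the ductus deferens held under every alternative run, with log2 fold changes over the testis between 5.15 and 5.79 for LRP2, 4.77 and 5.77 for HNF4A, 4.41 and 5.31 for CDHR2, and 3.65 and 4.60 for PLA2G12B, and over the ductus deferens between 7.28 and 8.32, 6.08 and 8.67, 3.59 and 4.29, and 4.16 and 6.22 in the same order of genes. For the ductus deferens over the testis, 2 genes were called, and 1 when any bird was left out (range 1 to 1), LRP2 being the call lost. With DESeq2, with all 3 tissues in 1 fit and at an adjusted p under 0.05 there were 3, with PLA2G12B added. Other scaling gave a median log2 fold change of all genes over the testis of -0.53 (upper quartile) and -0.56 (library size alone), beside -0.30 with TMM. With the bird as a block, which pairs the tissues of a bird, 4 genes stayed called over the testis, 4 over the ductus deferens and 2 for the ductus deferens over the testis. The number of the 15 transcripts called fell to 0 in each comparison. Of all transcripts tested, 175 of 48523 were then called higher over the testis and 0 of 37795 over the ductus deferens. Without the epididymis of bird 12, added after the data were seen, 4 transcripts were called over the testis and 4 over the ductus deferens. Of all transcripts tested in that fit, 3491 of 55728 and 1216 of 41506 were called higher in the epididymis. The 1 transcript called for the ductus deferens over the testis was also lost without the filter on low counts (0). Of the 6 differences in transcript share, 0 passed in the paired test by bird, 0 with assembled transcripts only, and 0 to 6 when 1 bird was left out, with 6 only without bird 12. The paired test allows no p below 0.0312 (64 sign changes) before adjustment over 12 comparisons, so nothing is concluded from its 0. Fewer samples or transcripts enter the other tests, and the cause was not tested further. All 6 gene pairs correlated over the epididymides in each planned setting except 5 without bird 2, and 0 in the rank test without TMM. Directions turned in values that were not called. They were ACAA2 over the ductus deferens with library size alone (0.15), without bird 12 (0.14, range -0.23 to 0.14 over the birds left out) and without its epididymis (0.10), the share of ENSMGAT00000005191 for the ductus deferens over the testis without bird 2 (range -16.6 to 16.9 percentage points over the birds left out) and that of MSTRG.44991.1 for the epididymis over the testis without bird 15 (range -2.04 to 0.38). The depth limits HNF4A and PLA2G12B in the ductus deferens, at 12 to 46 and 22 to 60 counts. It also limits the transcript shares of LRP2 there, at 24 to 424 counts.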

Other observations

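Over the 6 epididymides, 4 lncRNA loci were followed in 11 pairs with the 4 genes, after the data had been seen. The pairs were taken from correlations in the supplementary tables and are only a part of what the study reports. It relates further lncRNAs to these genes, among them some with predicted direct interactions, and those were not followed here. Of the 4 loci followed, MSTRG.45871 and MSTRG.47677 are also predicted by the study to interact directly with the LRP2 protein. MSTRG.32272 averaged 87.0 ± 27.9 CPM in the epididymis against 0.33 ± 0.15 CPM in the ductus deferens and 5.02 ± 2.45 CPM in the testis (SD, n = 6), and its lowest epididymis was that of bird 12, at 32.2 CPM. MSTRG.45871 averaged 12.3 ± 4.71 CPM in the epididymis against 2.31 ± 1.02 CPM in the ductus deferens and 1.92 ± 0.55 CPM in the testis, and was at 3.96 CPM in bird 12. MSTRG.47677 was at 1.96 to 2.90 CPM in the epididymides and at 0 counts in all ductus deferentia and testes. MSTRG.8143 reached at most 2.81 CPM in the epididymis and was at 0 counts in that of bird 12. Over the epididymides, MSTRG.32272 and CDHR2 had a Pearson coefficient of 0.87 (exact permutation p = 0.147, adjusted over 11 pairs 0.231) and a Spearman coefficient of 0.14 (exact permutation p = 0.803, adjusted 0.803). The Pearson coefficient was -0.55 without birds 12 and 14, so it rests on those samples. MSTRG.45871 and PLA2G12B had the lowest p of the 11 pairs, with a Pearson coefficient of 0.76 (exact permutation p = 0.0278, adjusted 0.176) and a Spearman coefficient of 0.60 (exact permutation p = 0.242, adjusted 0.803), and the Pearson coefficient was 0.07 without birds 12 and 15. LRP2 had a Pearson coefficient of 0.76 with MSTRG.45871 (exact permutation p = 0.0639, adjusted 0.176). With MSTRG.47677 it was 0.13 (exact permutation p = 0.79, adjusted 0.79). None of the 11 pairs passed an adjusted p of 0.05, and 1 had an unadjusted p under it. The study correlated profiles within a comparison of 2 tissues, which includes the difference between them. The coefficients over the 6 epididymides leave that difference out, so they do not repeat its test.

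CDHR2 and HNF4A each had a transcript that was abundant in the epididymides of 5 birds and at 0 counts in that of bird 12, although the gene itself held 2696 and 1588 counts there. The same Ensembl transcript of CDHR2 appeared, at most of the counts of the gene, in 1 ductus deferens and 1 testis of other birds.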
